A study of Rattus norvegicus with 13 samples.

Results

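The interstitial matrix of the heart was followed here through 39 genes: the fibrillar and other collagens, the glycoproteins and proteoglycans that decorate them, the elastic fibre, the enzymes and chaperones that process and crosslink collagen, the proteases and tissue inhibitors that turn the matrix over, and the TGF-beta ligands with a receptor. The genes were taken by symbol. Each was read by its brightest probe set that carries only that symbol, by mean log2 signal over all arrays. Of the 39 genes, 38 had such a probe set, among 14217 genes on the array that did, and Tgfbr2 was not analysed here. RNA came from the left ventricle of pregnant female Sprague-Dawley rats, read with 13 Rat Genome 230 2.0 arrays of Affymetrix. Control rats (5 arrays) drank plain water. Methionine-fed (Met-fed) rats (4 arrays) received L-methionine at 9 g/L, which raises plasma homocysteine. L-NAME-fed rats (4 arrays) received the NO synthase inhibitor L-NAME at 1 g/L. Dosing began on day 1 of pregnancy and ended on day 20, and hearts were taken on day 20 or 21. All 3 groups were pregnant and ate standard chow, and no group without pregnancy was part of the arrays. The study's methods describe multiparous rats that drank methionine since the first of several pregnancies, whereas the labels state neither, so the length of exposure is not settled. The labels give no age for the rats, and do not say whether each array held RNA of 1 rat, so p-values measure the spread between arrays.

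Collagen chains are folded in the endoplasmic reticulum with the help of the chaperone HSP47 (Serpinh1), trimmed outside the cell, and then joined by lysyl oxidases, which also crosslink elastin. In the myocardium most of this matrix is made by fibroblasts, and TGF-beta, stored in the matrix in a latent form, is the best known signal that raises its production. Matrix metalloproteinases degrade it, and the TIMPs restrain them. A rise of collagens, periostin, fibronectin and lysyl oxidase together is the usual transcript picture of cardiac fibrosis.

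Values are log2 of the MAS5 signal, the intensity summary of Affymetrix's own software, which the files hold scaled to a common trimmed mean. A level is that log2 signal, a change is a difference of group means on the log2 scale, and levels of different probe sets were not set against each other. Changes carry their SE from limma, fitted on all 31042 probe sets and 13 arrays, and the adjusted p of limma is Benjamini-Hochberg over all probe sets. Rose, fell and changed are used only at an adjusted p under 0.05. Of the 38 genes, 35 had a mean signal at or above the median of all probe sets, and Tgfb1, Loxl2 and Tnc were below it. Eln was above that median, 4.866, in L-NAME alone, with group means of 4.41 in control, 4.35 in Met-fed and 6.33 in L-NAME. Spp1 was above it in Met-fed alone, at 5.58, with 4.62 in control and 4.53 in L-NAME.

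The L-NAME arrays stood apart from the other 9 as a whole. In limma, 28.7% of all probe sets were higher and 17.0% lower in L-NAME than in control, whereas 0.0% differed between Met-fed and control in either direction. The median signal of an array was 34.2 to 36.9 in L-NAME, against 25.7 to 27.2 in control and 25.8 to 29.2 in Met-fed. The log2 ratio of 3' to 5' beta-actin probe sets, a usual measure of RNA length and of how far labelling reaches from the 3' end, was 2.48 ± 0.162 in L-NAME (SD, n = 4) and 3.47 ± 0.142 in control (SD, n = 5), with an exact 2-sided permutation p of 0.0159, which is the lowest that 4 against 5 arrays can give. In Met-fed it was 3.53 ± 0.176 (SD, n = 4). The same ratio for GAPDH was 0.562 ± 0.0918 in L-NAME and 1.18 ± 0.11 in control (SD, exact permutation p = 0.0159). That for hexokinase was 1.85 ± 0.247 and 2.04 ± 1.15 (SD, exact permutation p = 0.762), so not every such ratio was shifted. The beta-actin ratio did not overlap between L-NAME and the other groups, so that the treatment and this property of the arrays cannot be told apart. The median change of all probe sets in L-NAME was 0.219, and became -0.206 after subtracting every array's own median (centring) and -0.014 after quantile normalization. Of the called probe sets, 62.8% were higher in L-NAME as the files are scaled, 34.9% after centring and 50.1% after quantile normalization. L-NAME calls are therefore given with both.

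In Met-fed hearts no gene of the matrix set passed limma's test, nor the methods' t-test after the same adjustment. Of the 38 genes, 16 were above control and 22 below, with a median change of -0.042, beside 0.004 for all probe sets. By their brightest probe sets, all 5 fibrillar collagens lay slightly below control, by -0.23 to -0.05, and the 4 elastic fibre genes by -0.06 to -0.03. Dimmer probe sets of Col5a1 (0.07), Fbn1 (0.18) and Eln (0.96 ± 0.64) lay above control. Those of Col1a1 (-0.23), Col1a2 (-0.14), Col5a2 (-0.41) and Fbln1 (-0.07) lay below. Col3a1 was 0.02 after quantile normalization. Of the 19 genes of the set with several probe sets, 8 had changes of both signs in Met-fed. For Col1a1, the main chain of type I collagen, the 95% interval of the change was -0.49 to 0.40, and for Col3a1, the type III chain, it was -0.36 to 0.27. At an unadjusted p under 0.05, 3 genes (7.89%) were higher and 1 (2.63%) was lower, where 5.72% and 4.97% of all probe sets were. In no gene were the 4 Met-fed arrays all above or all below the 5 control arrays, which was the case upward in 1.34% and downward in 1.55% of all probe sets.

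**Figure D1:**
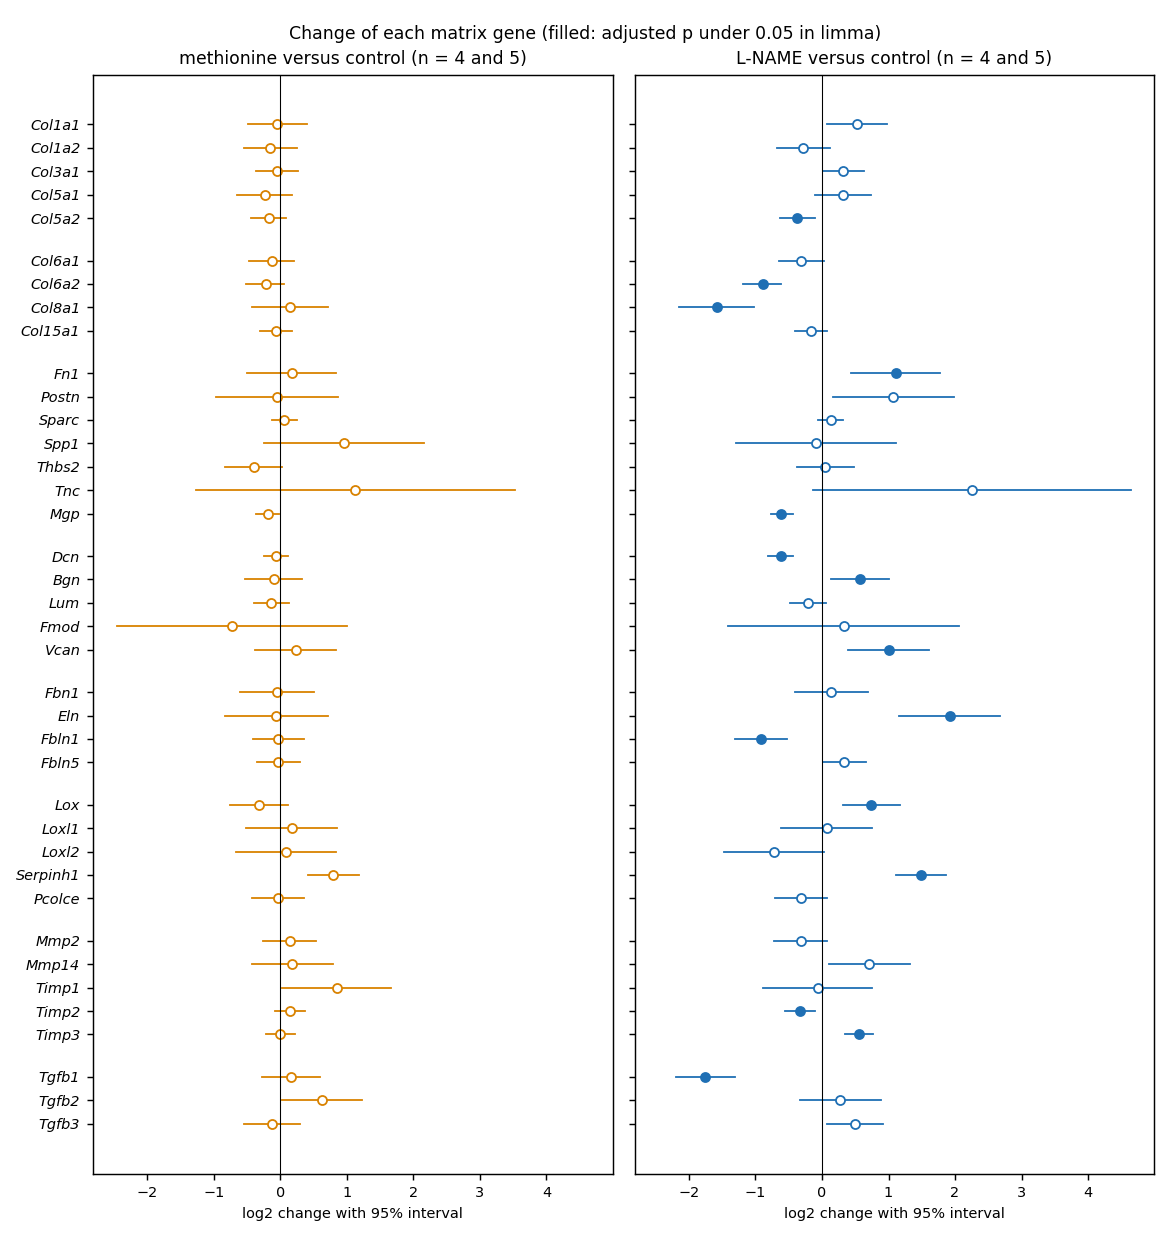
Log2 change of each of the 38 genes against control (x axis) with its 95% interval, Met-fed on the left and L-NAME on the right, n = 4 treated and 5 control arrays. Filled points passed an adjusted p under 0.05: none on the left, and 7 higher and 8 lower on the right.

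Serpinh1, the collagen chaperone, had the smallest p of the set in Met-fed. Its level was 8.11, 7.37, 7.41, 7.48 and 7.64 on control arrays 1 to 5, and 8.91, 7.96, 8.15 and 8.57 on Met-fed arrays 1 to 4. It overlapped only through control 1, which was above Met-fed 2. The change was 0.79 ± 0.18 (SE; 95% interval 0.41 to 1.18), a 1.73-fold higher mean signal, with an adjusted p of 0.201 in limma and an exact permutation p of 0.0317. With single arrays left out in turn it ran from 0.62 to 0.94. The L-NAME arrays read 9.01, 9.02, 9.02 and 9.33, above every control and every Met-fed array. There the gene rose by 1.49 ± 0.18 over control, 2.81-fold (adjusted p = 4.91e-06), and by 1.44 after quantile normalization and 1.07 after centring, with the call kept both times. L-NAME was also 0.70 ± 0.19 above Met-fed (adjusted p = 0.00762), a difference singled out after its values were seen, and this call was lost with centring. The second Serpinh1 probe set was dim, at a mean level of 1.88. It differed from control by -0.02 ± 0.40 in Met-fed and 0.31 ± 0.40 in L-NAME, and neither passed.

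Serpinh1 had the smallest p in Met-fed and the largest called rise after elastin in L-NAME, and its promoter is shown for that reason, with that of Tgfb1, the largest fall in L-NAME, beside it. Both are RefSeq sequence of rat build GRCr8, the 250 bases before the annotated start, 5′ to 3′ on the gene's strand. The Serpinh1 stretch is chr1:163062977-163063226 on the minus strand, and the Tgfb1 stretch is chr1:90324062-90324311 on the plus strand. Capitals mark a GC box (GGGCGG) and a pair of heat shock half-sites (GAANNTTC), searched on both strands.
Serpinh1: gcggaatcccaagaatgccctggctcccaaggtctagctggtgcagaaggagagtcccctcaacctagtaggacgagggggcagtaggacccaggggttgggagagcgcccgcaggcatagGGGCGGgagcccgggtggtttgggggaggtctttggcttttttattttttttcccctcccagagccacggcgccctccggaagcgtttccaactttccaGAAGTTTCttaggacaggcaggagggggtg
Tgfb1: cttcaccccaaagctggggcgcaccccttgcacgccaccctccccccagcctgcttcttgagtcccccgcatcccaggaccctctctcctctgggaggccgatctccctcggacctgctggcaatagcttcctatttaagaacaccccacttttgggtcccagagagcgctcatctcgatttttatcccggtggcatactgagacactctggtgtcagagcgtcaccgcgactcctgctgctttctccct
In Serpinh1 the heat shock pair lies at -30 to -23 from the start and the GC box at -129 to -124. The Tgfb1 stretch held neither, nor a TATA box (TATAAA) or an AP-1 site (TGANTCA). The table held 26 promoters of 25 of the 39 genes, among 33469 promoters in all. The heat shock pair was in 1 of the 26 and in 7.23% of all promoters, the GC box in 13 of 26 and 30.5%, the TATA box in 4 of 26 and 12.9%, and the AP-1 letters in 1 of 26 and 6.34%. These are matches of letters, not known sites.

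Timp1, the inducible metalloproteinase inhibitor, and Tgfb2, a TGF-beta ligand, were high on the same 2 Met-fed arrays. Timp1 read 8.85, 7.87, 7.22, 8.01 and 7.64 in control and 9.90, 7.65, 8.13 and 9.39 in Met-fed. Tgfb2 read 6.75, 6.76, 7.22, 6.70 and 7.39 in control and 8.23, 6.54, 7.33 and 8.26 in Met-fed. Met-fed 1 and 4 were above all controls for both genes, while Met-fed 2 and 3 lay within or below the control range. The change was 0.85 ± 0.38 for Timp1 (adjusted p = 0.450) and 0.63 ± 0.29 for Tgfb2 (adjusted p = 0.452). With Met-fed 1 and 4 left out together, a choice made after these values were seen, the changes were -0.032 and -0.029, that of Serpinh1 was 0.45 and that of Mgp, described next, was -0.04. Leaving out Met-fed 1 alone brought Timp1 to 0.47, and the change of Tgfb2 ran from 0.40 without Met-fed 4 to 0.97 without Met-fed 2.

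Mgp, matrix Gla protein, an inhibitor of calcification, was the gene with an unadjusted p under 0.05 on the low side. Control read 11.83, 11.76, 11.76, 11.88 and 11.88, and Met-fed 11.51, 11.73, 11.83 and 11.45, so that Met-fed 1 and 4 were clearly below the control range, Met-fed 2 just below it and Met-fed 3 inside it. The change was -0.19 ± 0.08 (adjusted p = 0.404). The next 6 genes by p did not reach an unadjusted p under 0.05: Thbs2 (thrombospondin 2, -0.40 ± 0.20), Spp1 (osteopontin, 0.96 ± 0.57), Col6a2 (a type VI collagen chain, -0.22 ± 0.14), Lox (lysyl oxidase, -0.32 ± 0.20), Timp2 (0.15 ± 0.11) and Col5a2 (a type V chain, -0.17 ± 0.12). Single arrays carried part of these values: Lox was at -0.20 without Met-fed 1, Timp2 at 0.089 without control 3, and Col5a2 at -0.066 without Met-fed 2 and -0.10 without control 1.

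Single Met-fed arrays moved the set as a whole in opposite ways. On Met-fed 4, 17 of the 38 genes were above the control range and 2 below, whereas on Met-fed 2, 2 were above and 21 below. Met-fed 1 had 6 above and 8 below, and Met-fed 3 had 3 above and 6 below. Leaving out Met-fed 2 turned the count of genes above control from 16 into 27, leaving out Met-fed 4 turned it into 10, and leaving out control 1 turned it into 24. Transcripts typical of atrium were also far apart on these arrays. Sln (sarcolipin) read 10.71 on Met-fed 4 and 5.18 to 6.50 on the other Met-fed arrays, with 4.98 to 8.34 in control, and Myl4 (atrial light chain) read 9.86 against 4.96 to 6.81 on the other Met-fed arrays and 5.85 to 7.96 in control. The third atrial marker, Myl7, read 6.77, 9.21, 10.71 and 10.85 on Met-fed 1 to 4, so that Met-fed 3 was about as high as Met-fed 4, and 8.33 to 9.54 in control. Summed over the 3 markers, the signal ran from 311 to 4450 in Met-fed and 426 to 1120 in control. The part of these markers in the matrix values was not tested.

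**Figure D2:**
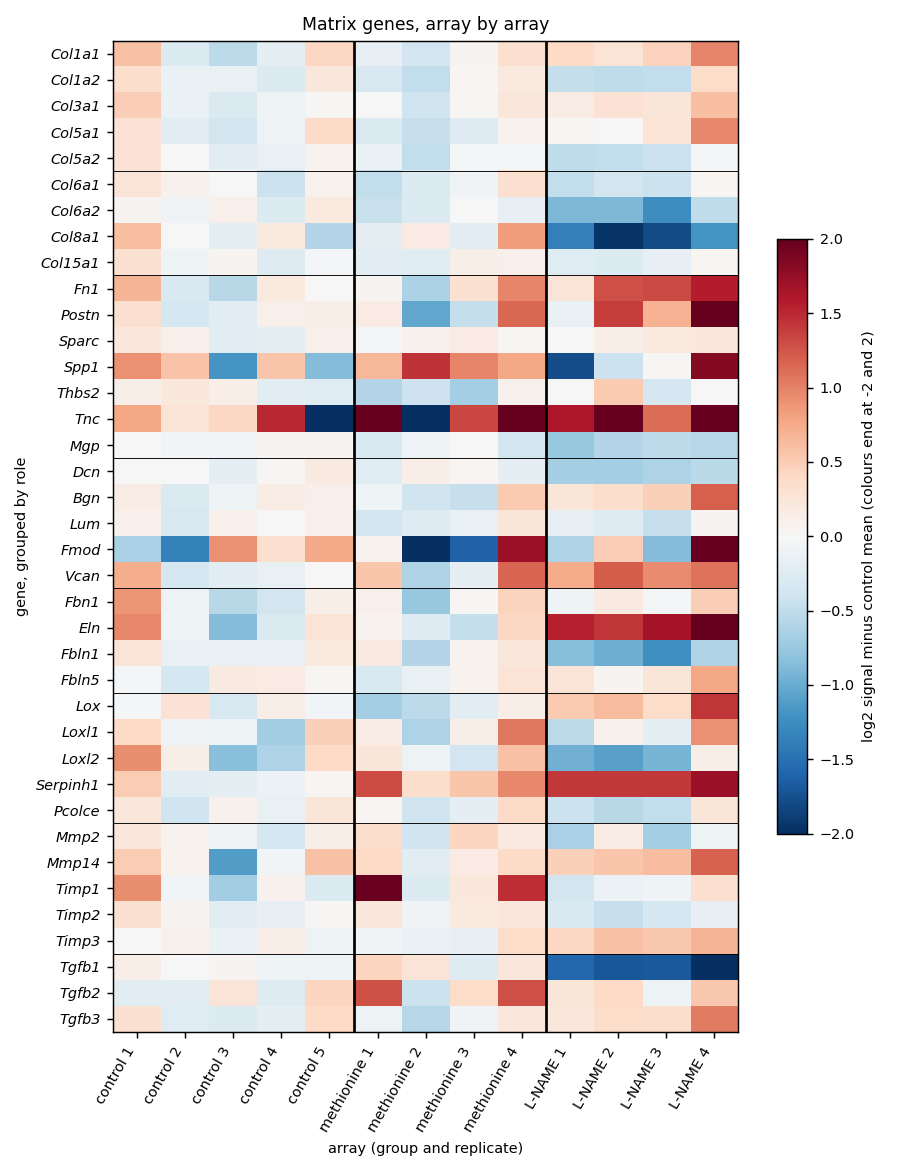
Log2 signal of each gene (rows, grouped by role) minus its control mean, on each of the 13 arrays (columns). Red is above and blue below the control mean. Met-fed 4 and L-NAME 4 are red over much of the set and Met-fed 2 is blue, beyond the pattern of their groups.

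In L-NAME hearts 15 of the 38 genes passed the test, at least 1 in each of the 8 roles. Higher were Serpinh1, Lox, Eln, Fn1, Vcan, Bgn and Timp3, and lower were Tgfb1, Col8a1, Col6a2, Col5a2, Dcn, Mgp, Fbln1 and, by its brightest probe set, Timp2. That is 18.4% of the 38 higher and 21.1% lower, where 28.7% and 17.0% of all probe sets were. Groups without overlap were counted in 6 genes upward (15.8%) and 6 downward (15.8%), where 25.8% and 14.5% of all probe sets did the same. The median change of the set was 0.099, beside 0.219 for all probe sets. The signs of all 15 held under both other scalings, whereas 11 of the 38 genes, none of them called, changed sign with the scaling. The call held under both scalings for 2 of the 7 that rose, Serpinh1 and Eln, and for 5 of the 8 that fell, Tgfb1, Col8a1, Col6a2, Dcn and Fbln1. In bulk tissue, fewer cells of a type and less RNA per cell cannot be told apart.

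**Figure D3:**
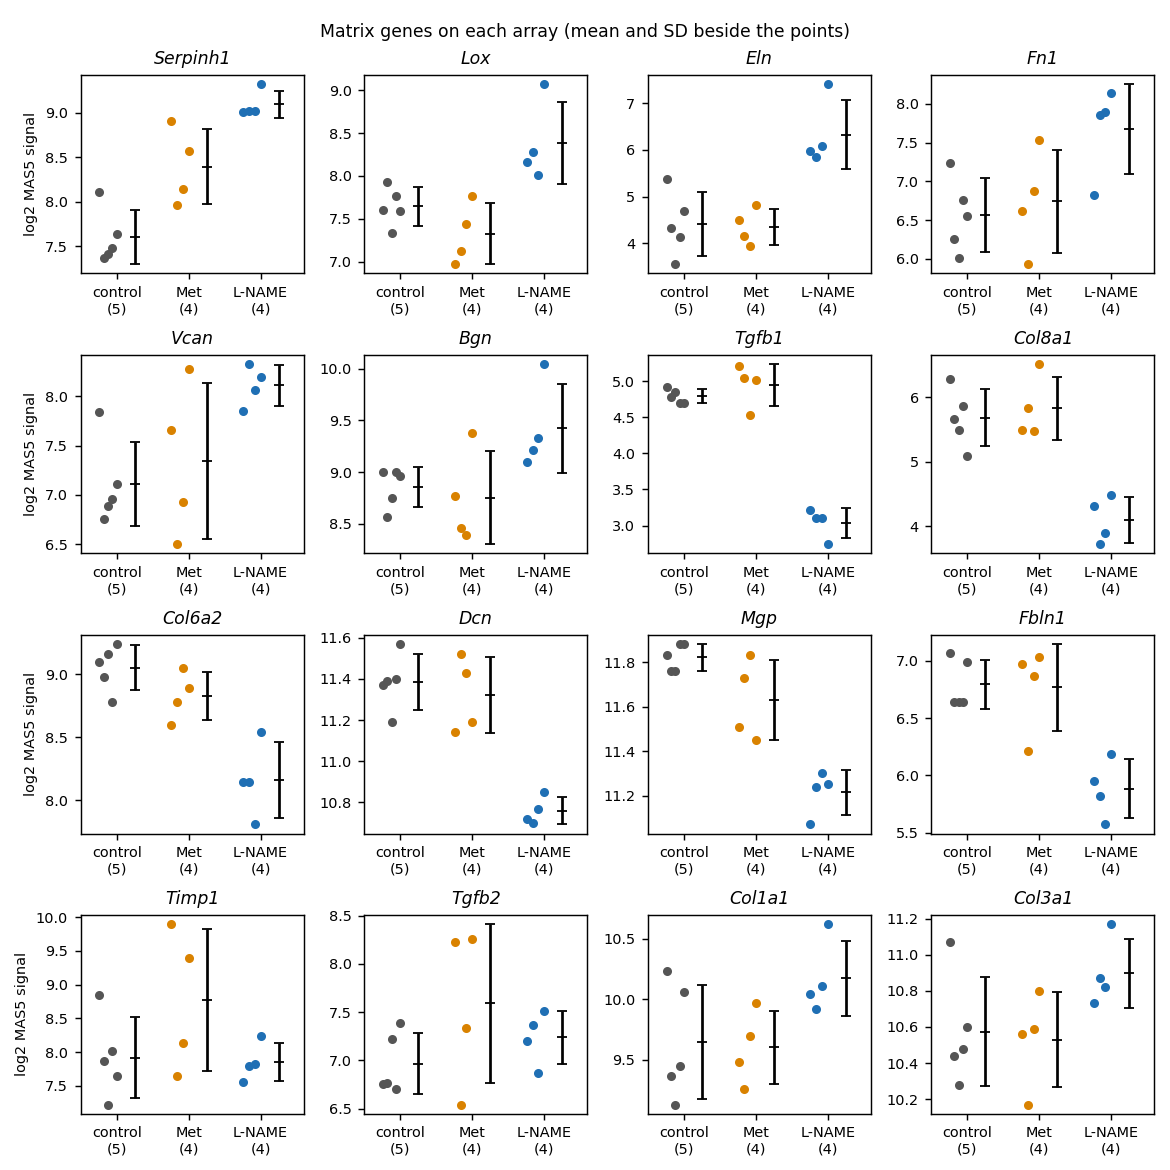
Log2 MAS5 signal (y axis) of 16 of the genes on each control (grey, 5), Met-fed (orange, 4) and L-NAME (blue, 4) array, with the group mean and SD beside the points. For Serpinh1, Lox, Eln, Vcan, Bgn, Tgfb1, Col8a1, Col6a2, Dcn, Mgp and Fbln1 the L-NAME arrays do not overlap the control arrays, though for Vcan only barely. For Timp1 and Tgfb2 the Met-fed arrays split into a high and a low pair.

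Among the collagens 3 fell and 0 rose: 2 of 4 nonfibrillar chains and 1 of 5 fibrillar chains, beside 28.7% higher and 17.0% lower of all probe sets. After quantile normalization 2 rose and 2 fell, and with centring 0 rose and 6 fell. Of all 31042 probe sets, 6823 were higher and 6796 lower after quantile normalization, and 4952 higher and 9232 lower with centring. The balance among collagens thus depended on the scaling, as did that of all probe sets. Col8a1, a short chain collagen of vessel walls and activated fibroblasts, read 6.29, 5.67, 5.49, 5.87 and 5.09 in control, 5.49, 5.84, 5.47 and 6.52 in Met-fed, and 4.31, 3.72, 3.89 and 4.48 in L-NAME. All L-NAME arrays were below every other array, and the gene fell by 1.58 on the log2 scale (SE 0.27, adjusted p = 0.000132), or by 0.60 with 50 added to each signal. Col6a2 read 9.10, 8.98, 9.16, 8.78 and 9.24 in control and 8.15, 8.15, 7.81 and 8.54 in L-NAME, again without overlap, a change of -0.89 ± 0.14 (adjusted p = 4.66e-05). Averaged with its dimmer probe set it was -0.36, not called (adjusted p = 0.0626). Its partner chain Col6a1 differed by -0.31 ± 0.16 and Col15a1 by -0.16 ± 0.11, and neither passed.

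Col5a2 changed by -0.37 ± 0.12 (adjusted p = 0.0246), with L-NAME 4 at 10.22 inside the control range of 10.02 to 10.53 and the other L-NAME arrays at 9.74 to 9.81. This call was lost without control 1, control 5, L-NAME 1, L-NAME 2 or L-NAME 3, and after quantile normalization. The other Col5a2 probe set, at a mean level of 9.29, changed by -1.01 ± 0.17 (adjusted p = 0.000139). Averaged over both probe sets the change was -0.69 (adjusted p = 0.00114). Col1a1 read 10.23, 9.37, 9.13, 9.45 and 10.06 in control and 10.04, 9.92, 10.11 and 10.62 in L-NAME, a change of 0.53 ± 0.21 with an adjusted p of 0.0508. Its quantile-normalized change was 0.72 (adjusted p = 0.0105) and its centred change 0.10. Col1a2, Col3a1 and Col5a1 lay between -0.28 and 0.32 and were not called. Col3a1 was called higher after quantile normalization, at 0.71 (adjusted p = 0.00117), and was -0.10 with centring. Col1a2 was called lower with centring, at -0.70 (adjusted p = 0.00601), and Col5a1 was -0.11 there.

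The largest fall of the set was that of Tgfb1, the TGF-beta ligand most often tied to fibrosis. It read 4.92, 4.78, 4.85, 4.70 and 4.69 in control, 5.21, 5.04, 4.53 and 5.01 in Met-fed, and 3.21, 3.10, 3.11 and 2.74 in L-NAME. The L-NAME arrays were below every other array by over a full log2 unit, and the change was -1.75 ± 0.21 (adjusted p = 4.08e-06). The probe set is dim, and the size depends on the treatment of low signals: with 16 added to each signal the change was -0.85 and with 50 added -0.41, the call held both times. It was -2.23 after quantile normalization and -2.17 after centring. Tgfb2 differed by 0.27 ± 0.29 and Tgfb3 by 0.49 ± 0.20 (adjusted p = 0.471 and 0.054), and the dimmer Tgfb2 probe set rose by 2.26 ± 0.31 (adjusted p = 1.61e-05), with 0.84 ± 0.31 in Met-fed (adjusted p = 0.365).

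Eln, elastin, had the largest rise that passed. It read 5.38, 4.32, 3.55, 4.13 and 4.68 in control, 4.49, 4.15, 3.94 and 4.82 in Met-fed, and 5.97, 5.84, 6.08 and 7.42 in L-NAME. No L-NAME array overlapped another group, and the change was 1.92 ± 0.36, 3.77-fold (adjusted p = 0.000369). Without L-NAME 4 it was 1.55 (adjusted p = 0.00156), with 50 added to each signal 0.87, still called, and its other probe set rose by 2.07 ± 0.64 (adjusted p = 0.0143). Fbln1, an elastin-binding glycoprotein, moved the other way within the same role: 7.07, 6.64, 6.64, 6.64 and 6.99 in control against 5.95, 5.82, 5.57 and 6.19 in L-NAME, without overlap, -0.92 ± 0.18 (adjusted p = 0.000523), and -0.56 with 50 added to each signal, still called. Fbn1 (fibrillin 1) and Fbln5 differed by 0.14 ± 0.26 and 0.33 ± 0.15 and did not pass.

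Lox, which crosslinks collagen and elastin, read 7.60, 7.93, 7.33, 7.77 and 7.59 in control, 6.97, 7.12, 7.44 and 7.77 in Met-fed, and 8.16, 8.28, 8.01 and 9.08 in L-NAME. L-NAME lay above the other groups on every array. The rise over control was 0.74 ± 0.20, 1.67-fold (adjusted p = 0.00668), 0.51 without L-NAME 4, and 0.31 with the call lost after centring. The second Lox probe set rose by 0.66 ± 0.21 (adjusted p = 0.015). The related oxidases Loxl1 and Loxl2 and the procollagen protease enhancer Pcolce did not pass, at 0.07, -0.72 and -0.31.

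Of the glycoproteins and proteoglycans, Fn1 (fibronectin), Vcan (versican) and Bgn rose and Dcn and Mgp fell. Fn1 read 7.24, 6.26, 6.01, 6.76 and 6.55 in control and 6.82, 7.86, 7.89 and 8.14 in L-NAME, so that L-NAME 1 lay inside the control range, and the change was 1.11 ± 0.32 (adjusted p = 0.00825). Vcan, a large proteoglycan of provisional matrix, read 7.84, 6.76, 6.89, 6.96 and 7.11 in control and 7.85, 8.33, 8.06 and 8.20 in L-NAME, with L-NAME 1 barely above control 1, a change of 1.00 ± 0.29 (adjusted p = 0.00911). Bgn (biglycan) read 9.00, 8.56, 8.75, 9.00 and 8.96 in control and 9.10, 9.21, 9.33 and 10.05 in L-NAME, a change of 0.57 ± 0.20 (adjusted p = 0.0291). The Bgn call was lost without control 2, without control 3 and without L-NAME 4, where the change was 0.36. With centring all 3 calls were lost, at 0.69, 0.57 and 0.15.

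Dcn, decorin, a small proteoglycan that binds collagen fibrils and TGF-beta, read 11.37, 11.39, 11.19, 11.40 and 11.57 in control, 11.14, 11.52, 11.43 and 11.19 in Met-fed, and 10.72, 10.70, 10.77 and 10.85 in L-NAME. The L-NAME arrays lay together below all others, at -0.62 ± 0.09 (adjusted p = 1.99e-05). Mgp read 11.07, 11.24, 11.30 and 11.25 in L-NAME, below all control and Met-fed arrays, at -0.61 ± 0.08 (adjusted p = 9.48e-06). After quantile normalization Dcn kept its call at -0.21 (adjusted p = 0.00984) and Mgp lost it at -0.096. Postn (periostin) read 7.07, 6.39, 6.53, 6.85 and 6.88 in control and 6.60, 8.12, 7.44 and 9.11 in L-NAME, 1.07 ± 0.43 with an adjusted p of 0.0528, and 0.64 without L-NAME 4; it was singled out after its values were seen.

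Among proteases and inhibitors, Timp3 read 9.82, 9.89, 9.68, 9.94 and 9.71 in control and 10.22, 10.39, 10.34 and 10.49 in L-NAME. These did not overlap, and Timp3 rose by 0.55 ± 0.10 (adjusted p = 0.000298), with 0.79 after quantile normalization and 0.13, no longer called, after centring. Its 3 other probe sets rose by 0.47, 0.74 and 2.22, all called. Timp1, which was high on 2 Met-fed arrays, differed by -0.06 ± 0.38 in L-NAME. Mmp2 and Mmp14, a gelatinase and the membrane protease that activates it, differed by -0.32 ± 0.19 and 0.71 ± 0.29 and did not pass.

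The probe sets of Timp2 moved in opposite directions in L-NAME, so that its place among the genes that fell rests on the choice of probe set. Its brightest probe set read 10.20, 9.96, 9.67, 9.74 and 9.92 in control and 9.59, 9.43, 9.54 and 9.73 in L-NAME, a change of -0.33 ± 0.11 (adjusted p = 0.0181), and its dimmer probe set changed by 2.73 ± 0.19 (adjusted p = 2.8e-08), from a mean of 3.77 to 6.50. It was the only gene of the set with calls in both directions, which 18.9% of the 4525 genes with several probe sets had. Of the 19 genes of the set with several probe sets, 5 had changes of both signs in L-NAME: Col1a1 (0.53 and -0.30), Col1a2 (-0.28 and 0.50), Col6a2 (-0.89 and 0.17), Loxl2 and Timp2. The 5 probe sets of Vcan, by contrast, lay between 0.82 and 1.06. Dimmer probe sets were called where the brightest was not for Col5a1 (1.28), Fbn1 (1.11), Sparc (0.54), Mmp14 (0.98) and Tgfb2, and that of Fbln1, at -0.43, was not called. Whether the shift of the beta-actin 3' to 5' ratio has a part in this was not tested.

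**Figure D4:**
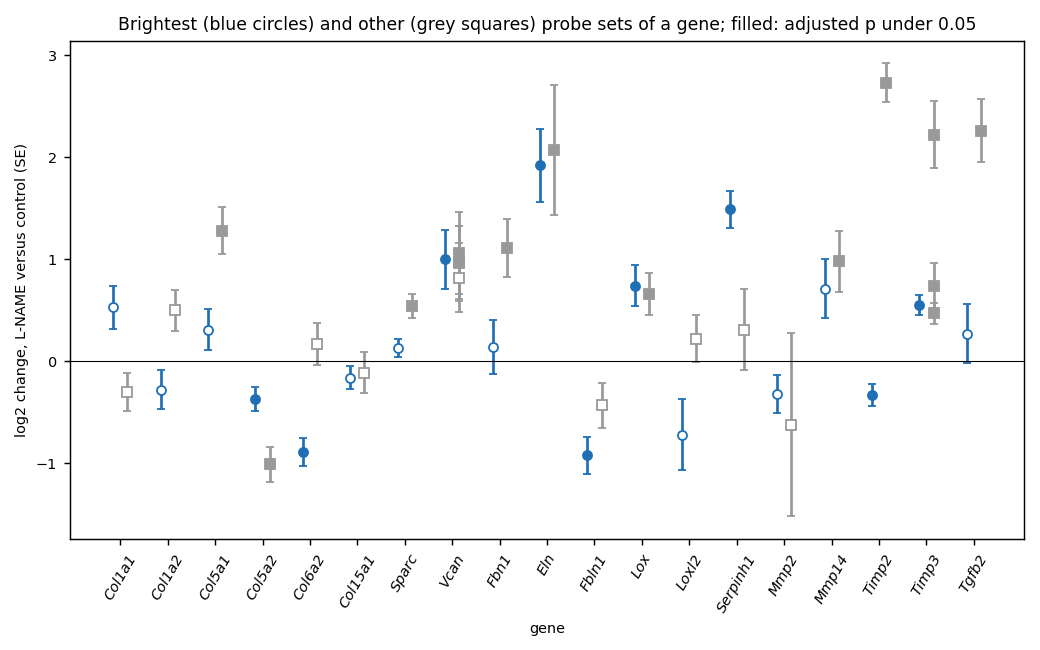
Log2 change in L-NAME versus control with its SE (y axis) for all probe sets of the 19 genes that have several (x axis), blue circles for the brightest and grey squares for the others. Filled symbols passed an adjusted p under 0.05. The pairs of Timp2 and Col1a1 straddle 0, and those of Eln, Lox, Vcan and Timp3 lie on the same side.

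Single arrays weighed on L-NAME as well. On L-NAME 4, 22 of the 38 genes lay above the control range and 6 below, where L-NAME 1, 2 and 3 had 8, 10 and 10 above and 14, 12 and 15 below. Without L-NAME 4, 6 genes were higher and 12 lower. L-NAME 2 and 4 also carried the atrial transcript Sln at 8.91 and 8.19, against 4.42 and 4.26 on L-NAME 1 and 3. The adipocyte transcripts Adipoq (adiponectin) and Plin1 (perilipin 1) split the same arrays, at 6.78 and 7.45 for Adipoq against 1.14 and 1.41, and at 6.16 and 6.68 for Plin1 against -0.11 and -2.33. Control arrays were split as well, from -1.81 to 7.96 for Adipoq. The part of these transcripts in the matrix values was not tested. With the beta-actin 3' to 5' ratio as a covariate, added after the data were seen, 3.29% of all probe sets were called, and in the matrix set only Fn1, at 3.44 on the log2 scale (adjusted p = 0.034). Because the ratio separates L-NAME from the other groups without overlap, this fit cannot tell the treatment and the ratio apart.

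Comparing L-NAME with Met-fed tests whether the treatments differ. In limma, 9 of the 38 genes were higher in L-NAME (23.7%, with 25.4% of all probe sets) and 7 lower (18.4%, with 14.9%). Groups did not overlap in 6 upward and 7 downward, where 25.6% and 14.0% of all probe sets did the same. Since the same L-NAME arrays enter, the values are given side by side with those against control. Tgfb1 differed from Met-fed by -1.91 ± 0.22 (adjusted p = 5.15e-06), Col8a1 by -1.73 ± 0.28, Dcn by -0.56 ± 0.09, Eln by 1.98 ± 0.38 and Timp3 by 0.55 ± 0.11. Dcn was -0.19 after quantile normalization, still called, and Timp3 was 0.18 with centring, not called (adjusted p = 0.171). Lox, at -0.32 from control in Met-fed and 0.74 in L-NAME, differed by 1.06 ± 0.21 (adjusted p = 0.000857), 2.08-fold, and this call was lost only with the beta-actin covariate among the alternatives run. Col6a2 differed by -0.67 ± 0.14, Fbln1 by -0.89 ± 0.19 and Timp2 by -0.47 ± 0.11, and with averaged probe sets Timp2 reversed to 0.97 and Col6a2 was -0.19, not called (adjusted p = 0.387). Mgp differed by -0.42 ± 0.08 (adjusted p = 0.000729), but by 0.014 after quantile normalization. Also called were Col1a1 (0.57, adjusted p = 0.0489) and Col5a1 (0.55), with Fn1, Bgn and Tgfb3 at 0.94, 0.67 and 0.62. All 5 lost their calls with centring, and Col5a1, Fn1 and Tgfb3 lost them after quantile normalization as well. The other Col1a1 probe set differed from Met-fed by -0.07 ± 0.20 (adjusted p = 0.823), and that of Col1a2 was called at 0.64. Of the 19 genes with several probe sets, 8 had differences of both signs here.

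Further genes of the same pathways, in lists that were chosen with earlier results known, had no call in Met-fed. Their L-NAME counts stand beside 28.7% higher and 17.0% lower of all 31042 probe sets. After quantile normalization 6823 of all probe sets were higher and 6796 lower, and with centring 4952 were higher and 9232 lower. In L-NAME, 4 of 24 TGF-beta signaling genes rose and 9 fell, with 3 and 12 after quantile normalization and 2 and 13 with centring. The signal transducer Smad3 rose by 0.75 ± 0.09, while Smad4, its common partner, changed by -0.48 ± 0.07, and the latent TGF-beta binding proteins Ltbp3 and Ltbp1 changed by -1.64 ± 0.20 and -0.81 ± 0.12. The calls of these 4 genes held under both other scalings. Of 13 collagen-modifying enzymes and chaperones 3 rose and 5 fell, as many as after quantile normalization, with 1 and 5 with centring. The prolyl isomerase Ppib, which acts on collagen beside Serpinh1, rose by 1.39 ± 0.13, whereas the lysyl hydroxylase Plod3 changed by -1.74 ± 0.13, the COPII coat gene Sec31a by -1.31 ± 0.11 and the procollagen protease Bmp1 by -0.92 ± 0.17, and all 4 calls held under both scalings.

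Of 16 other metalloproteinases and inhibitors, 3 rose and 2 fell in L-NAME, but 1 and 5 after quantile normalization and 0 and 6 with centring. Timp4, an inhibitor enriched in heart, changed by -0.79 ± 0.12 and held under both scalings, while Adamts5 (0.51 ± 0.16) lost its call with centring and Mmp11 (0.69 ± 0.26) lost it under both. Mmp3 was called too, but its mean level was -1.24 in control and 1.20 in L-NAME, beside 1.074 for the highest unspiked bacterial control, so no size is given, and it lost its call under both scalings. Of 25 other interstitial matrix genes 3 rose and 4 fell, with 3 and 5 after quantile normalization and 1 and 12 with centring. The hyaluronan synthase Has2 rose by 1.39 ± 0.22, Col16a1 changed by -1.42 ± 0.32 and Efemp2 by -0.62 ± 0.15, each held under both scalings, and Efemp1 rose by 0.72 ± 0.13, lost with centring.

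Cell type markers were called in L-NAME too, where 28.7% of all 31042 probe sets were higher and 17.0% lower. After quantile normalization 6823 of all probe sets were higher and 6796 lower, and with centring 4952 were higher and 9232 lower. Of 9 fibroblast markers 2 rose and 5 fell, with 2 and 2 after quantile normalization and 2 and 6 with centring. Fap, a marker of activated fibroblasts, rose by 1.89 ± 0.34 and the collagen receptor Ddr2 by 1.06 ± 0.18, whereas Pdgfra changed by -0.57 ± 0.08, each called under both other scalings, and Vim changed by -0.37 ± 0.08 but by 0.06 after quantile normalization. The summed signal of the 9 was 7870 to 9650 in L-NAME and 10600 to 11800 in control. Of 6 smooth muscle and myofibroblast markers 2 rose, Acta2 by 1.82 ± 0.33 and Tagln by 1.45 ± 0.31, and 2 fell, Myh11 and Smtn. After quantile normalization 3 rose and 2 fell, and with centring 2 rose and 3 fell. The summed signal of the 6 overlapped, at 2090 to 2740 in L-NAME and 2320 to 2540 in control. Of 9 cardiomyocyte markers 8 fell, with a summed signal of 20000 to 23200 against 30000 to 33400, and 9 fell with centring but 3 fell and 1 rose after quantile normalization. Of 4 epicardial and mesothelial markers 3 rose, 1 after quantile normalization and 0 with centring, with sums of 523 to 683 against 321 to 483. In endothelium 4 of 5 fell, with 3 after quantile normalization and 5 with centring. In macrophages 1 of 6 rose and 4 fell, with 1 and 4 after quantile normalization and 0 and 5 with centring. In blood 1 of 3 fell, but 1 rose and 0 fell after quantile normalization, and 1 fell with centring. Of the 3 atrial markers none was called under any scaling. Of the 4 adipocyte markers none was called as the files are scaled, and 1 fell under each other scaling. Lep was at the level of unspiked bacterial controls. In Met-fed 0 markers were called. The part of these cell types in the matrix changes was not tested. The cardiomyocyte sum was at least 20000 on every array.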

How the data were processed

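The deposited values are MAS5 signal intensities, made by the authors and scaled to a trimmed mean of 150 on each array; the MAS5 version and settings are not given in the sources used here. The arrays are 5 control, 4 methionine-fed and 4 L-NAME-fed, grouped by the labels. The study's methods describe 4 controls and a t-test with variance stabilization in GeneSpring; which control was not used is not given in the sources used here, so all 5 entered. The 57 manufacturer control probe sets were left out. The remaining 31042 probe sets were tested as log2 signal in limma 3.58.1 (R 4.3.3), with a variance trend, all 13 arrays in 1 fit and Benjamini-Hochberg adjustment at 0.05. Exact permutation tests were 2-sided (scipy 1.17.1). Gene names came from GEO's platform annotation, updated through RefSeq: 20826 probe sets carried 1 symbol, 436 several and 9780 none. The number of arrays limits the precision.

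The genes and lists were chosen with earlier results of these data known. Named were the 10 genes with the smallest p in methionine versus control and in L-NAME versus methionine, every called gene in L-NAME versus control, all probe sets of these, and up to 4 called genes per further list; exceptions are stated where they occur. Alternatives comprised offsets of 16 and 50, centring each array on its median, quantile normalization, 2 filters on dim probe sets, compared groups alone, no variance trend, the methods' t-test and its unequal-variance form, the replicate number as a block, each array left out and the mean of a gene's probe sets. The fit was tested on simulated data.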

Additional observations from a re-analysis of the deposited data

Results flagged for a closer look

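Single arrays that stood far from the rest of their group, by Dixon's criterion, were found in 9 of 114 groups of 4 or 5 arrays tested (38 genes in 3 groups), where chance gives about 1 in 20. Of the 9, 6 were L-NAME 4 standing high: Col1a2 at a log2 signal of 10.26, Col5a2 at 10.22, Eln at 7.42, Loxl2 at 5.02, Serpinh1 at 9.33 and Pcolce at 8.56. Control 5 was low for Tnc, at -1.81, a dim probe set. Control 2 was low for Lum, at 10.32, and Met-fed 2 was low for Timp2, at 9.82.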

How the results depend on the processing

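In methionine versus control, 0 genes of the set passed an adjusted p under 0.05 in any alternative. Before adjustment, 3 were higher and 1 lower at p under 0.05. The higher count became 1 without a variance trend, with the methods' t-test, with unequal variances, with the beta-actin ratio as a covariate and without methionine 1 and 4 together. The lower count became 2 after quantile normalization, after centring and without methionine 1 and 4, and 0 without a variance trend and with either t-test. Leaving out single arrays gave 1 to 4 higher and 0 to 3 lower.

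In L-NAME versus control the 7 higher became 2 with centring, 11 with either filter on dim probe sets, 4 with unequal variances and 12 with averaged probe sets; the 8 lower became 16 with centring. In L-NAME versus methionine the 9 higher became 2 with centring, 4 without a variance trend and 3 with either t-test. The 7 lower became 15 with centring. Of all 31042 probe sets, centring left 4952 higher and 9232 lower against control, and 4184 and 7976 against methionine. With the beta-actin ratio as a covariate 1 was higher and 0 lower against control, and 0 and 0 against methionine. Single arrays left out gave 6 to 11 higher and 6 to 12 lower against control, and 4 to 14 higher and 7 to 10 lower against methionine. The median change of the set became -0.326 against control and -0.367 against methionine with centring, and 0.34 against methionine with averaged probe sets.

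Signs reversed for Timp1 and Tgfb2 in methionine without arrays 1 and 4 (-0.032 and -0.029), for Timp2 with averaged probe sets (1.20 against control and 0.97 against methionine) and for Mgp against methionine after quantile normalization (0.014). Of the 15 genes called against control, 6 (Tgfb1, Serpinh1, Dcn, Col8a1, Eln and Fbln1) kept their call in every alternative but the beta-actin covariate. The filter at the median signal leaves Tgfb1 out. Eln passes that filter only through its L-NAME arrays, so the filter adds no support for its call. The causes were not tested.

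The labels number the arrays within each group, but the numbers did not pair them: correlations of deviations between arrays of the same number ran from -0.211 to 0.236, and 6 of 24 best matches fell on the same number. With the number as a replicate block, 12 genes were higher in L-NAME versus control and 0 were lower at an unadjusted p under 0.05 in methionine versus control. Tgfb1, Loxl2 and Tnc were dimmer than the median probe set, and the size of the fall of Tgfb1 depended on the offset.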
